A study of Mus musculus with 84 samples.

Results

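A set of 10 genes of serine synthesis, one-carbon metabolism and the ATF4 stress program was followed in sorted mouse microglia after severe traumatic brain injury. Psat1, Phgdh, Psph, Shmt1, Shmt2, Mthfd2, Mthfd1l, Asns, Atf4 and Trib3 were chosen by gene symbol and made up 10 of the 49671 gene identifiers in the count files. All 10 passed the filter on low counts in each of the 14 comparisons made. Microglia are the brain's own macrophages. They were isolated by flow cytometry and sequenced as bulk RNA. The 4 treatments were uninjured mice with no treatment (sham in the design text), mice with injury only, injured mice given liposomes that carry clodronate, and injured mice given liposomes that carry PBS, called vehicle here. Clodronate kills phagocytes that take it up, and the series' design states depletion of peripheral monocytes as its use. Vehicle animals share the liposomes but not the drug. The strain, age and sex of the mice, the injury method, the sort gates and whether animals were pooled are not stated in the labels.

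At day 1 after injury there were 5 uninjured, 5 injury-only, 4 vehicle and 6 clodronate libraries. Of the day 1 liposome libraries, 2 vehicle and 3 clodronate libraries carry the same earlier year in their names as the other day 1 libraries, and 2 vehicle and 3 clodronate libraries carry a later year. Day 7 held 4, 5, 4 and 5 libraries in the same order, day 14 held 3, 3, 5 and 5, day 30 held 4 of each, and day 60 held 3, 3, 4 and 4. Total gene counts ran from 11145687 to 16035926 per library at day 1 and fell to a median of 5211493 at day 60, where the shallowest library had 1109856. Vehicle library 4 of day 7 had 1134078 counts. All 10 homeostatic microglia markers (P2ry12, Tmem119, Cx3cr1 and others) were detected in every group. Uninjured library 3 of day 14 stood apart, with a summed homeostatic marker level of 4445 CPM (counts scaled to library size) against 35250 and 37520 CPM in the other two, and with 5873 CPM of monocyte and 5946 CPM of neutrophil markers. Clodronate library 1 and vehicle library 1 of day 14 also stood apart, each with monocyte and homeostatic marker sums nearer to those of the other group. The astrocyte, oligodendrocyte lineage and endothelial sums of clodronate library 1 (138.9, 94.7 and 79.1 CPM) lay nearer to those of its own group. Its lymphocyte and cell cycle sums (27.4 and 97.3 CPM) lay nearer to those of the vehicle group. In vehicle library 1 the astrocyte, oligodendrocyte lineage and endothelial sums (158.5, 107.8 and 79.4 CPM) lay nearer to those of the clodronate group. The reason was not tested. Monocyte markers summed to 23.3 CPM in that clodronate library against 280 to 1305 CPM in the other 4, and to 312 CPM in that vehicle library against 43.4 to 69.3 CPM in the other 4. Levels below are CPM after scaling all 84 libraries together by the trimmed mean of M values (TMM). No source says that the libraries of a group came from separate animals. The p-values therefore cover library-to-library spread, which may be technical.

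Cells make serine from a glycolytic intermediate in a chain of reactions catalysed by PHGDH, PSAT1 and PSPH. The serine hydroxymethyltransferases SHMT1 (cytosol) and SHMT2 (mitochondria) then move a carbon of serine onto folate, giving glycine. In mitochondria MTHFD2 and MTHFD1L oxidise that carbon and release it as formate, which the cytosol uses for purine and thymidylate synthesis. ATF4 is a transcription factor whose translation rises when the kinases of the integrated stress response phosphorylate eIF2, and its known target genes include those of serine synthesis, mitochondrial folate metabolism, Asns (asparagine synthetase) and Trib3 (a pseudokinase that feeds back on ATF4). In the brain, astrocytes are known as a main site of serine synthesis.

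The genes lie on 8 chromosomes of the mm10 (GRCm38) build, with spans taken from GENCODE M21. Phgdh spans chr3:98313170-98339990, Psat1 chr19:15904678-15947337 and Psph chr5:129765558-129787449, all on the minus strand. Shmt1 spans chr11:60788104-60811718 and Shmt2 chr10:127517123-127522444, both on the minus strand. Mthfd2 spans chr6:83305691-83325908 on the minus strand and Mthfd1l chr10:3973118-4167081 on the plus strand. Asns spans chr6:7675169-7693254 (minus), Atf4 chr15:80255184-80257541 (plus) and Trib3 chr2:152337422-152344032 (minus). Psph overlaps Cct6a on the opposite strand, which had 194464 counts over all libraries against 15689 for Psph, and Shmt1 overlaps Smcr8, with 23575 against 8909. Whether strand was used in counting is not stated. Ambiguous reads were kept apart from the gene counts, so Psph and Shmt1 may have lost reads to that class. Their values may also hold reads of these neighbours.

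Sequences next to the RefSeq starts of Psat1, Asns and Trib3 are shown because these genes had the largest day 1 differences of the 10 and because ATF4 is known to bind the composite C/EBP-ATF element. RefSeq promoter windows (GRCm38.p6) were found for all 10 genes, and all 250 bases before the RefSeq start, exon bases of GENCODE models included, were searched on both strands for TGATGNAA, the core of that element, and for TGGTGCAA, a variant of it that was added after the sequences had been read. The first occurred in the window of 1 of the 10 genes, Asns, where all 8 bases lie before the RefSeq start but inside the first exon of GENCODE models, and in the windows of 3.91% of 27025 genes. The second occurred in the windows of 2 of the 10 genes, Psat1 and Trib3, outside annotated exons, and in those of 0.555% of the same genes. A match describes the letters of the window and is not evidence of binding. Capitals mark the matches, all on the strand of the gene and read 5′ to 3′. The Psat1 stretch is chr19:15925060-15925309, the Asns stretch chr6:7693225-7693459, whose last 30 bases lie in the first exon of GENCODE models, and the Trib3 stretch chr2:152344061-152344310, all from the minus strand. For Psat1 a second RefSeq window held neither form. The Psat1 stretch lies inside the GENCODE span of the gene, which ends at 15947337, so the RefSeq start is not the outermost GENCODE start.
Psat1: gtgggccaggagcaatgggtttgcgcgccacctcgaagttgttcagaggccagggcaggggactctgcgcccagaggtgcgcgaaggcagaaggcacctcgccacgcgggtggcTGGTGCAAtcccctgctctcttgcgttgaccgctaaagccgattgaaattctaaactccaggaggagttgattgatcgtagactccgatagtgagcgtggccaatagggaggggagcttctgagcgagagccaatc
Asns: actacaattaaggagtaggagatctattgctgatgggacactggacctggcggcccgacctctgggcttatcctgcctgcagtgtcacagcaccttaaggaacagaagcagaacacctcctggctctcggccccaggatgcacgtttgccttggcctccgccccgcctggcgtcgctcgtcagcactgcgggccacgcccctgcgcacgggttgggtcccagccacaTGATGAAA
Trib3: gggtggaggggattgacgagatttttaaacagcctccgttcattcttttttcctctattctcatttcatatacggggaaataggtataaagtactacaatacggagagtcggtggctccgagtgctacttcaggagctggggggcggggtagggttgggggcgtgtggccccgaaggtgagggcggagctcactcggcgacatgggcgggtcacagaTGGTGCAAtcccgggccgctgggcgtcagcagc

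At day 1 injury raised 9 of the 10 genes, and the exception was Atf4 itself. Asns, Trib3 and Psat1 rose most, by 6.5-fold, 6.53-fold and 5.46-fold, followed by Shmt2, Mthfd2, Mthfd1l and Shmt1. The first and last enzymes of serine synthesis, Phgdh and Psph, rose by 1.37-fold and 1.38-fold. By edgeR's quasi-likelihood test with Benjamini-Hochberg adjustment over all genes, 9 of 10 were called higher at an adjusted p under 0.05 and 0 lower, beside 18.5% of all 14516 genes called higher. In 8 of the 10 all 5 injured libraries lay above all 5 uninjured ones, beside 14.9% of all genes. The median log2 fold change of the 10 genes was 1.72, and that of all genes 0.005. The genes were picked with results of these data known, so these counts and p-values are given as descriptions. In bulk samples a change in the share of cells that express a gene and a change in its RNA per cell cannot be told apart.

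**Figure D1:**
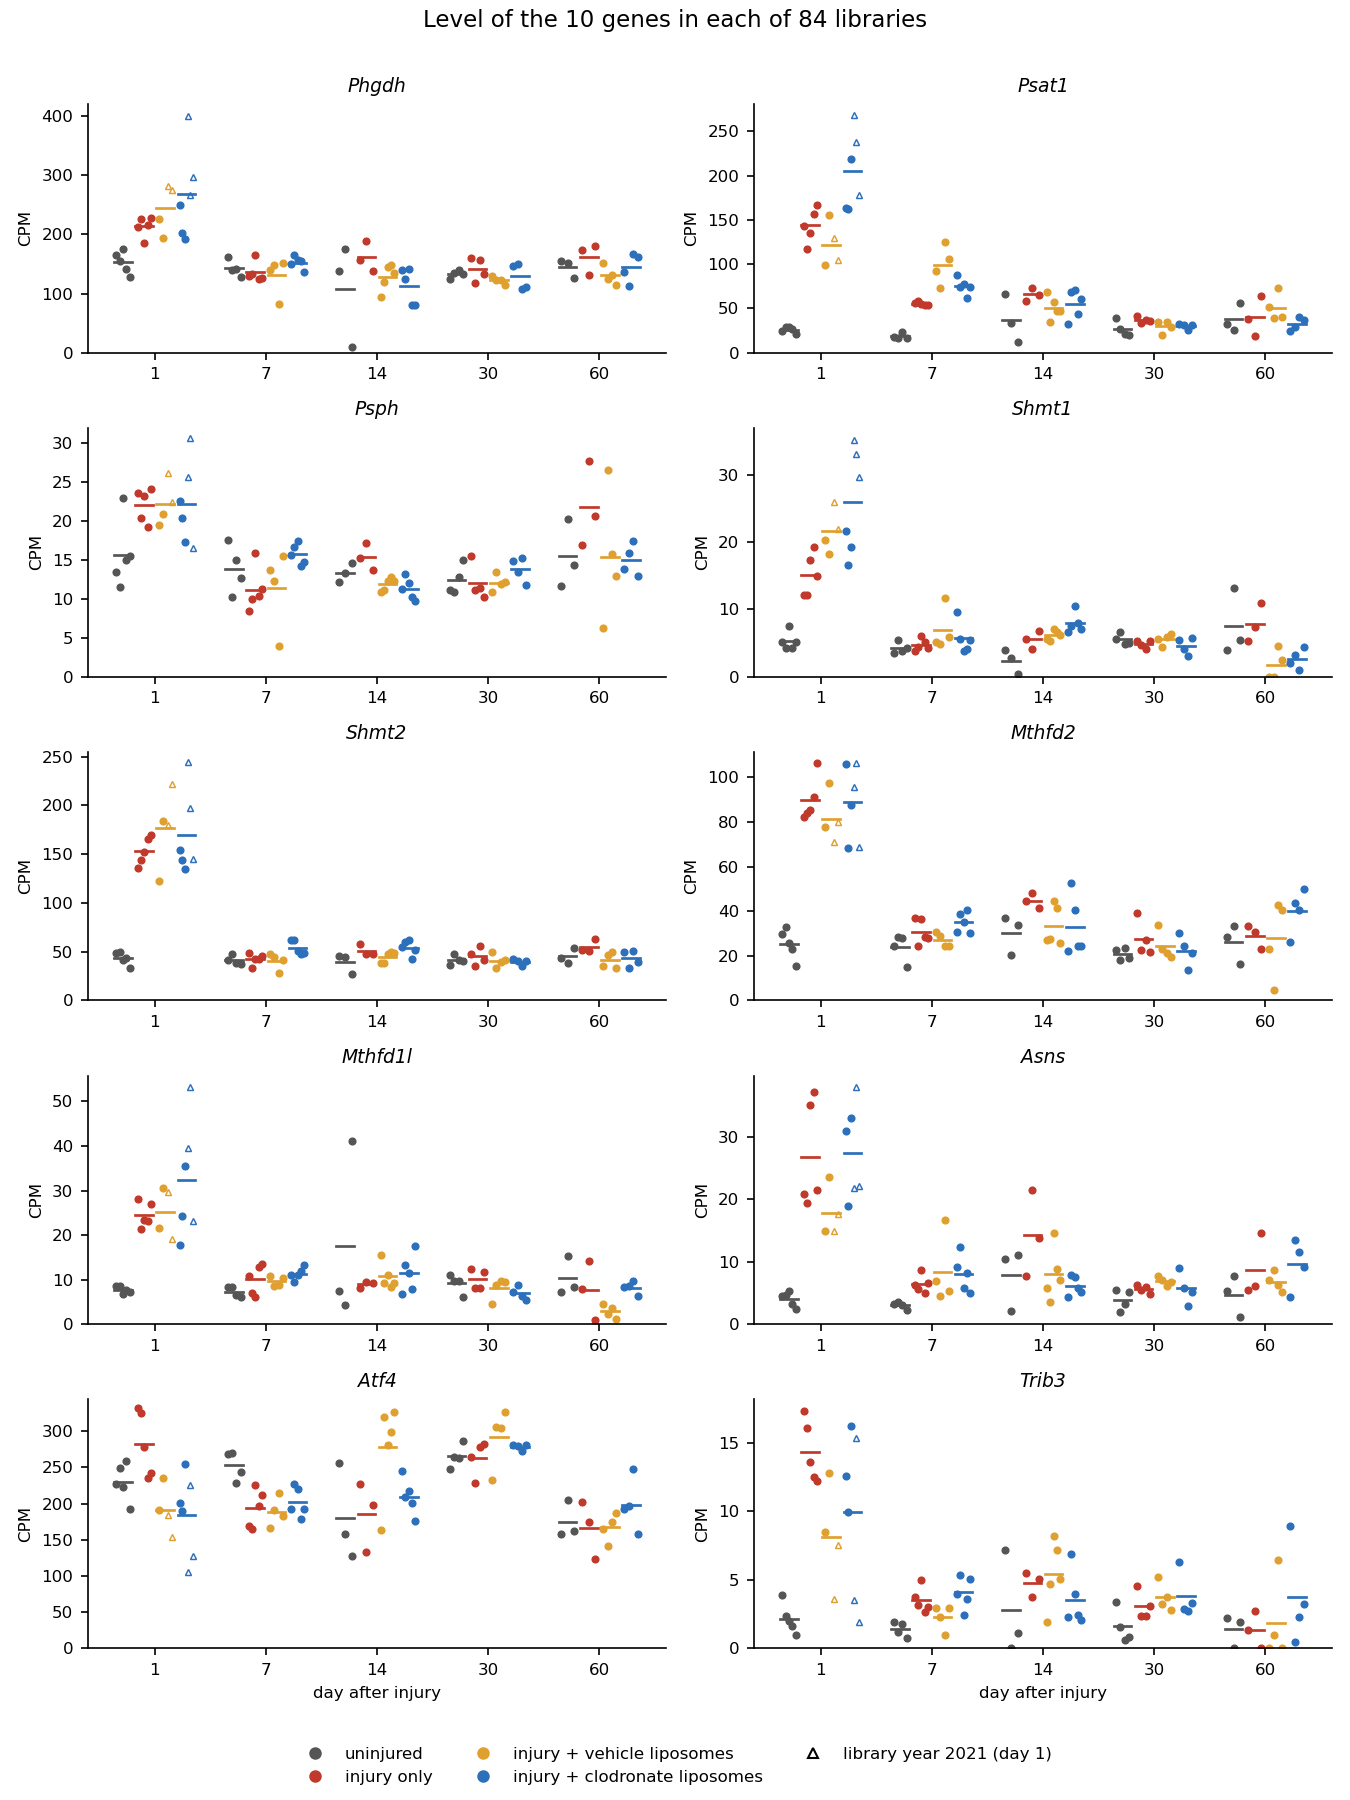
Level of each gene (vertical axis, CPM, from 0) in each of the 84 libraries by day after injury (horizontal axis). Each point is a library coloured by treatment, open triangles are day 1 libraries of the later library year, and bars are group means. Psat1 runs from 117 to 167 CPM in the injury-only libraries of day 1 and from 20.6 to 29.1 CPM in the uninjured ones.

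In the serine synthesis chain the middle enzyme had the largest fold change at day 1. Psat1, phosphoserine aminotransferase, was at 143, 117, 136, 157 and 167 CPM in the 5 injured libraries and at 24.1, 29.1, 28.9, 26.4 and 20.6 CPM in the 5 uninjured libraries. The lowest injured library was thus far above the highest uninjured one. Its log2 fold change was 2.45 (SE 0.16, adjusted p = 2.73e-10), the smallest adjusted p among the 10 genes. Phgdh, phosphoglycerate dehydrogenase, was at 213, 226, 185, 217 and 228 CPM after injury and at 165, 155, 176, 141 and 128 CPM without injury. The groups did not overlap, though the nearest libraries, at 185 and 176 CPM, were close, and the log2 fold change was 0.45 (SE 0.11, adjusted p = 0.0032). Psph, phosphoserine phosphatase, ranged from 19.2 to 24.1 CPM after injury and from 11.5 to 22.9 CPM without. Its groups overlapped through uninjured library 3, and its log2 fold change was 0.47 (SE 0.17, adjusted p = 0.0371). The Psph call was lost when any of injured libraries 1, 3 or 5 or uninjured libraries 1, 2, 4 or 5 was left out (adjusted p 0.0677 to 0.11).

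Both serine hydroxymethyltransferases rose at day 1. Shmt2 was at 136, 145, 152, 166 and 170 CPM in the injured libraries and at 48.4, 49.3, 41.8, 43.5 and 33.3 CPM in the uninjured ones. Its log2 fold change was 1.80 (SE 0.14, adjusted p = 3.94e-09) and the groups were far apart. Shmt1, at a much lower level, was at 12.1, 12.2, 17.3, 19.2 and 14.9 CPM against 5.15, 4.28, 7.5, 4.24 and 5.08 CPM. The cytosolic enzyme's log2 fold change was 1.51 (SE 0.18, adjusted p = 8.19e-07), again without overlap.

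The mitochondrial folate enzymes moved by a similar amount. Mthfd2, methylenetetrahydrofolate dehydrogenase, was at 82, 84.2, 85.5, 91.4 and 106 CPM after injury and at 30, 33, 25.9, 23 and 15.3 CPM without injury. Its log2 fold change was 1.79 (SE 0.17, adjusted p = 5.63e-08). Mthfd1l, the formate-releasing enzyme, was at 28.1, 21.3, 23.3, 23.3 and 27 CPM against 8.52, 8.48, 6.78, 7.6 and 7.24 CPM. The groups lay well apart, and the log2 fold change was 1.64 (SE 0.22, adjusted p = 3.9e-06).

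The pair of ATF4 target genes outside serine metabolism had the largest fold changes. Asns was at 20.8, 19.5, 35.2, 37.3 and 21.5 CPM in the injured libraries and at 4.47, 4.71, 5.35, 3.2 and 2.5 CPM in the uninjured ones. Injured libraries 3 and 4 were higher than the other three, and all 5 were above the uninjured range (log2 fold change 2.70, SE 0.26, adjusted p = 5.88e-08). Trib3 was at 17.3, 16.1, 13.6, 12.5 and 12.2 CPM after injury and at 3.88, 2.32, 1.96, 1.6 and 0.948 CPM without it. Its log2 fold change was 2.71 (SE 0.43, adjusted p = 3.31e-05) with a wide error, and Trib3 reads were few in the uninjured libraries. Atf4 mRNA was at 333, 326, 278, 235 and 242 CPM after injury and at 228, 249, 223, 259 and 193 CPM without. The groups overlapped, the log2 fold change was 0.27 (95% interval -0.06 to 0.60) and the adjusted p was 0.204, so a rise of up to 0.60 on the log2 scale cannot be told from none here. Atf4 is regulated mainly in translation, which these libraries do not measure.

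Per kilobase of exon, uninjured microglia of day 1 held most Atf4, with a mean level of 97.6 CPM per kilobase, then Phgdh with 61.5 and Shmt2 with 13.9. Mthfd2 (7.29), Psat1 (6.07) and Psph (3.61) followed, and their ranges over libraries overlapped. Mthfd1l (1.74), Asns (1.48), Shmt1 (1.35) and Trib3 (1.01) were lowest and also overlapped. After injury Psat1 reached 33.8 CPM per kilobase, between uninjured Phgdh and uninjured Shmt2. Phgdh was thus the most abundant of the 3 serine synthesis mRNAs before injury and had the smallest fold change of the 10 genes among those that passed the test.

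Marker levels of other cells also differed between these groups at day 1. The summed astrocyte markers, 8 genes and none at 0 throughout, were lower after injury, at 111 to 148 CPM against 166 to 194 CPM. Most of that sum was the glutamate transporter Slc1a3, and Aldoc lay at 4.12 to 9.95 CPM against 3.48 to 8.01 CPM. Of the 8 astrocyte markers 1 was called higher and 1 lower. Monocyte markers summed to 24.5 to 119 CPM after injury and 11.3 to 15.9 CPM without, with 5 of 7 tested markers called higher. Neutrophil markers summed to 1.79 to 10.4 CPM against 0 to 0.145 CPM, with 5 of 6 at 0 in every uninjured library. Homeostatic microglia markers summed to 23310 to 26800 CPM after injury against 44140 to 48750 CPM, and all 10 were called lower. The monocyte sums of injured libraries 1 to 5 were 31.1, 24.5, 37.2, 119 and 109 CPM, in the order in which the gene levels above are given. Psat1, Shmt2 and Mthfd2 were highest in libraries 4 and 5, Trib3 and Atf4 were lowest there, and the remaining genes were neither. Cell cycle genes summed to 107 to 214 CPM after injury and 78.7 to 95.9 CPM without. What part these cells or states have in the change of the 10 genes was not tested.

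The 6 further lists, 77 genes in all, covered the surrounding pathways. Of the 74 tested at day 1, 46 rose and 7 fell, beside 18.5% of all genes called higher and 15.3% called lower. The same shares are the background of each list below, and several lists hold few genes. All 12 cytosolic aminoacyl-tRNA synthetases, which charge tRNAs with amino acids and include known ATF4 targets, rose, with a median log2 fold change of 0.85. Examples are Yars (93.4 to 187 CPM, log2 fold change 0.97, adjusted p = 3.93e-07), Gars (0.90, adjusted p = 4.44e-07), Lars (1.04, adjusted p = 6.98e-07) and Iars (1.05, adjusted p = 7.31e-07). Of 8 amino acid transporters 6 rose and 0 fell. Slc7a11, the cystine-glutamate exchanger, went from 3.08 ± 1.1 CPM (SD, n = 5) to 66.1 ± 6.8 CPM (SD, n = 5), a log2 fold change of 4.40 (adjusted p = 1.3e-06). Slc1a5, a neutral amino acid carrier, went from 12.3 to 81.6 CPM (log2 fold change 2.70, adjusted p = 3.4e-07), Slc7a5 from 65.4 to 218 CPM (1.71, adjusted p = 4.14e-07) and Slc7a1, an arginine carrier, from 8.7 to 24.5 CPM (1.46, adjusted p = 2e-06).

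Of 17 other folate and one-carbon genes 8 rose and 2 fell. Those that rose with the smallest p included the purine synthesis enzymes Gart (61.8 to 129 CPM, log2 fold change 1.03, adjusted p = 2.16e-07) and Atic (3.65 to 10.6 CPM, 1.52, adjusted p = 8.81e-06). Mthfd1, the cytosolic counterpart of the mitochondrial enzymes, rose by 1.04 on the log2 scale (adjusted p = 8.09e-07) and Slc19a1, the reduced folate carrier, by 1.19 (adjusted p = 2.9e-05). The pair that fell, named after their values were seen, were the folate transporter Slc46a1 (-0.53, adjusted p = 0.00545) and Ggh (-0.39, adjusted p = 0.00819). Tyms, thymidylate synthase, did not pass, at 0.45 (adjusted p = 0.0601). Of 8 tested genes of glycine cleavage, the methionine cycle and transsulfuration 3 rose and 1 fell, with a median of -0.11. Ahcy, which breaks down S-adenosylhomocysteine, rose by 1.84 (adjusted p = 1.12e-08), and Gcsh and Dld of the glycine cleavage system rose by 0.60 (adjusted p = 0.000247) and 0.27 (adjusted p = 0.0134). Mat2b, a regulatory subunit of S-adenosylmethionine synthesis, fell by 0.60 (adjusted p = 2.69e-05).

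Of 18 tested other ATF4 target genes 10 rose and 4 fell. Eif4ebp1, an inhibitor of cap-dependent translation, rose from 35.6 to 85.9 CPM (log2 fold change 1.25, adjusted p = 2.8e-06), Jdp2 from 25.5 to 137 CPM (2.40, adjusted p = 3.52e-06) and Aldh18a1, of proline synthesis, from 47.1 to 110 CPM (1.19, adjusted p = 9.79e-06). The 4 that fell were Ppp1r15a, a phosphatase subunit that reverses eIF2 phosphorylation (2388 to 1423 CPM, -0.77, adjusted p = 6.28e-05), and, named after their values were seen, Ddit3, which encodes CHOP (114 to 55.8 CPM, -1.05, adjusted p = 0.000128), Atf3 (8375 to 5421 CPM, -0.66, adjusted p = 0.00588) and Cebpg (-0.43, adjusted p = 0.00677). The list thus held called genes on both sides. Among the 11 genes of the stress kinases and eIF2, 7 rose and 0 fell. Eif2s1, which encodes the alpha subunit of eIF2, rose by 0.98 (adjusted p = 7.31e-08), Eif2b5 by 0.65 (adjusted p = 4.87e-05), Ppp1r15b by 0.80 (adjusted p = 0.00132) and Eif2b3 by 0.77 (adjusted p = 0.00239). Of the 4 kinase genes, named after their values were seen, Eif2ak4, which encodes the amino acid sensor GCN2, rose by 0.41 (adjusted p = 0.0167). Eif2ak3, which encodes PERK, was at 0.00 (adjusted p = 0.996), Eif2ak1 at -0.04 (adjusted p = 0.788) and Eif2ak2 at -0.31 (adjusted p = 0.224).

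**Figure D2:**
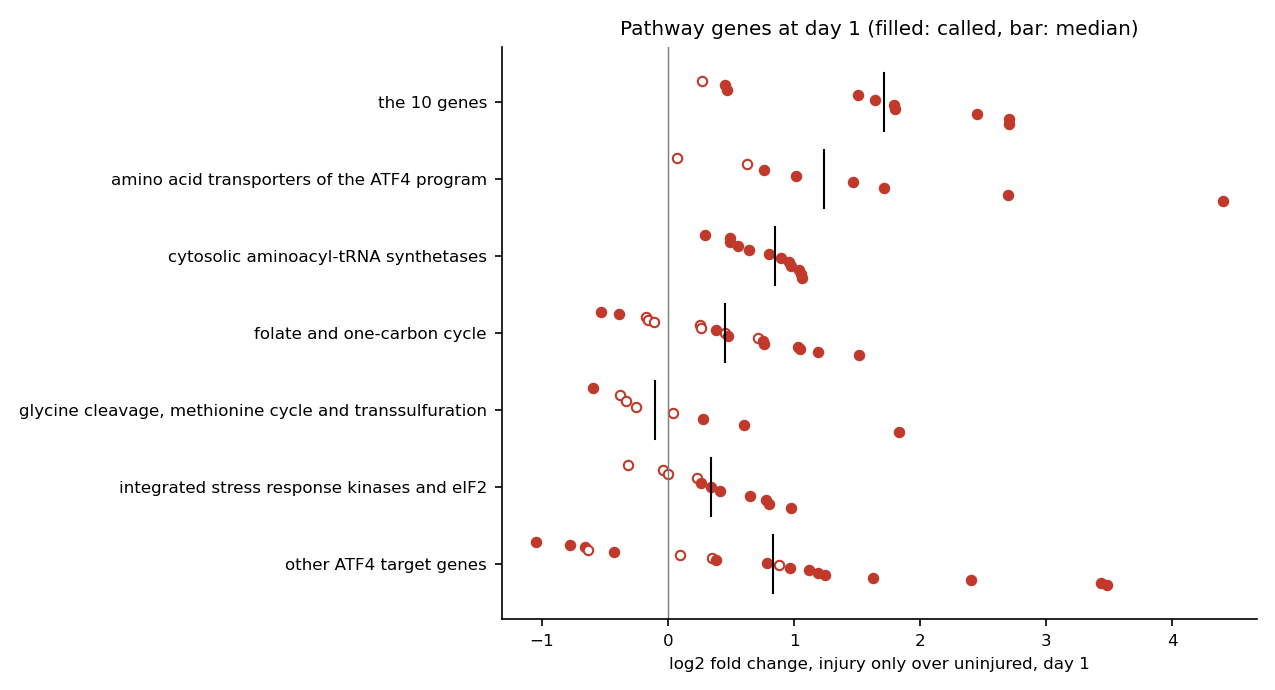
Log2 fold change of injury only over uninjured at day 1 (horizontal axis) for the 10 genes and for each of the 6 surrounding lists. Each point is a gene, filled where the adjusted p is under 0.05, and bars are list medians. All 12 tRNA synthetases lie above 0, and the other ATF4 targets fall on both sides.

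At day 7 Psat1 and Trib3 were called higher after injury, 2 of the 10 genes beside 6.14% of all 14278 genes called higher. Psat1 was at 55.6, 58.3, 55.1, 53.5 and 54.1 CPM in the injured libraries and at 17.9, 17.1, 23.1 and 17 CPM in the uninjured ones. The injured libraries lay close together and all above the uninjured ones (log2 fold change 1.58, SE 0.16, adjusted p = 1.98e-06). Trib3 was at 3.75, 3.16, 5.01, 2.61 and 2.99 CPM against 1.9, 1.17, 1.75 and 0.749 CPM (log2 fold change 1.34, SE 0.34, adjusted p = 0.0186). The Trib3 call was lost without uninjured library 2 (adjusted p = 0.0691) or 4 (adjusted p = 0.0655).

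Asns at day 7 was at 6.23, 5.58, 8.63, 5.07 and 6.54 CPM after injury and at 3.17, 3.6, 3.04 and 2.32 CPM without. The groups did not overlap, yet the adjusted p was 0.0529 (log2 fold change 1.10, SE 0.34), and DESeq2's Wald test called Asns as well, for 3 genes in all. Atf4 lay the other way, at 169, 165, 225, 197 and 212 CPM after injury against 269, 270, 229 and 244 CPM, with a log2 fold change of -0.36 (SE 0.12, adjusted p = 0.0721). Its groups did not overlap either, and without injured library 3 the adjusted p was 0.047. Ranges without overlap were found for 3 of the 10 genes on the higher side (7.89% of all genes) and for 1 on the lower side (6.05%). Shmt2, at 33.5 to 48.4 CPM after injury and 36.9 to 48.1 CPM without, had a log2 fold change of 0.07 (95% interval -0.22 to 0.35), and Phgdh one of -0.05 (95% interval -0.32 to 0.22). Of 73 tested pathway genes 1 rose and 1 fell, beside 6.14% and 1.54% of all genes: Eif2ak2, the interferon-inducible kinase PKR (log2 fold change 0.94, adjusted p = 0.0061), and Fpgs, which retains folates in cells (-0.54, adjusted p = 0.0185). Endothelial and mural markers summed to 238 to 297 CPM after injury and 103 to 158 CPM without at day 7, and monocyte markers to 32.6 to 109 CPM against 12.1 to 22.2 CPM. Their part in these values was not tested.

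From day 14 on edgeR called 0 of the 10 genes after injury. At day 14 it called 0.0% of 14354 genes, and 1 of the 10 genes had an unadjusted p under 0.05 (Shmt1), while DESeq2 called 0. Psat1 was at 58.7, 73.6 and 65.5 CPM in the injured libraries and at 66.2, 33 and 12.2 CPM in the uninjured ones, so uninjured library 1 lay within the injured range. Without that library the log2 fold change of Psat1 was 1.52 in place of 0.80 and its adjusted p 0.0316, the only member called in that setting. That fit kept uninjured library 3, which had the lowest Psat1 value, 12.2 CPM, so the call rests in part on it. Library 3, with its high monocyte and neutrophil markers, had 9.24 CPM of Phgdh against 139 and 176 CPM in the other uninjured libraries, and 41 CPM of Mthfd1l against 7.55 and 4.41 CPM. Without library 3 the log2 fold change was 0.03 in place of 0.55 for Phgdh, 0.58 in place of -0.98 for Mthfd1l and 0.40 in place of 0.80 for Psat1, and 0 of the 10 genes were called. Ranges did not overlap for Shmt1, Shmt2 and Mthfd2, all higher after injury, beside 7.18% of all genes.

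At day 30 edgeR called 0.0% of 14082 genes, DESeq2 0 of the 10, and 1 of the 10, Psat1, had an unadjusted p under 0.05. Psat1 was at 41.5, 33.6, 37.1 and 35.5 CPM after injury and at 39.4, 27.3, 20.7 and 19.7 CPM without, overlapping through uninjured library 1 (log2 fold change 0.46, SE 0.20). Trib3 was at 4.54, 2.36, 2.37 and 3.09 CPM against 3.41, 1.53, 0.617 and 0.794 CPM, also overlapping. Atf4 was at 229 to 282 CPM against 247 to 287 CPM, with a log2 fold change of -0.01 (95% interval -0.20 to 0.18). At day 60, with 0.0416% of 12033 genes called, 0 of the 10 genes were called, 0 had an unadjusted p under 0.05 and DESeq2 called 0. Psat1 was at 38.3, 19 and 64.5 CPM after injury and 32.2, 25.5 and 56 CPM without, and the groups covered the same range. Trib3 had 0 counts in 1 injured and 1 uninjured library, and 5 of the 84 libraries held no Trib3 read in all, so its differences were not detectable at that depth.

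**Figure D3:**
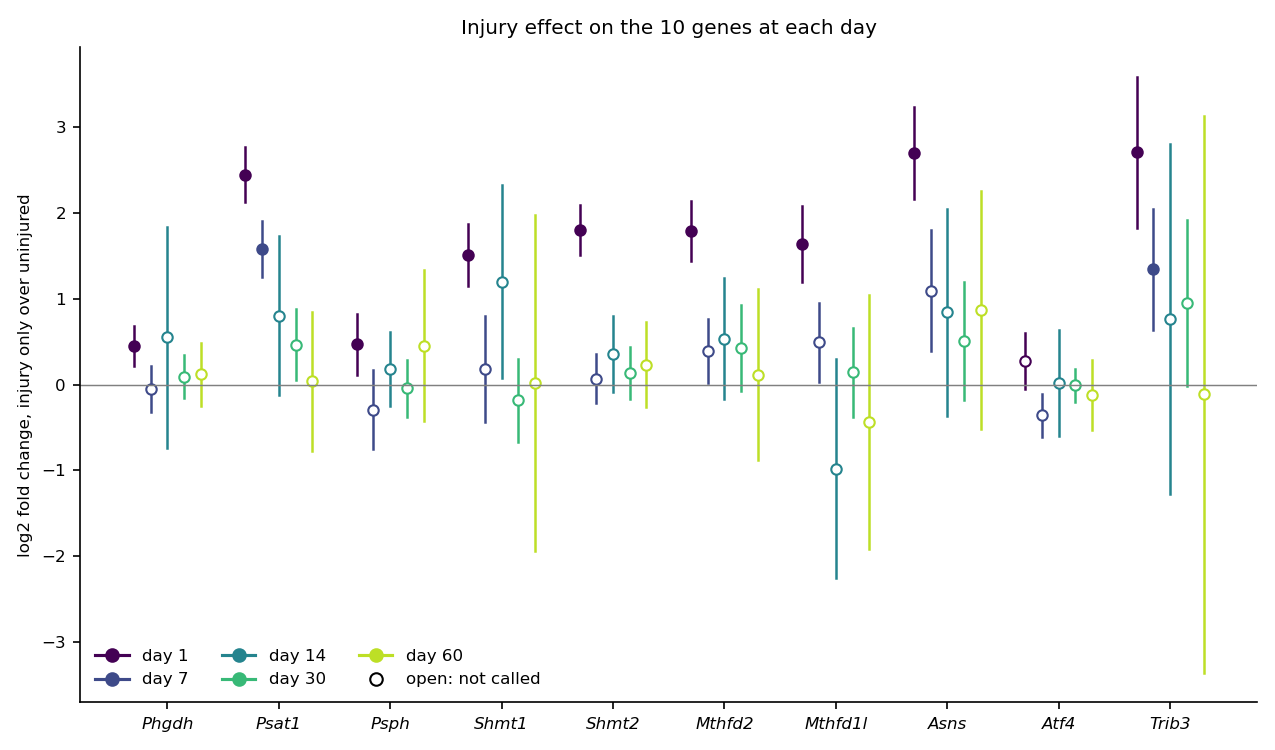
Log2 fold change of injury only over uninjured (vertical axis) for each gene at each of the 5 days, with 95% intervals. Filled points have an adjusted p under 0.05. The 9 filled points of day 1 give way to 2 at day 7 (Psat1 and Trib3) and to none later.

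Whether the injury effect differed between days was tested in one fit of all 84 libraries. The test called 6 of the 10 genes, beside 13.3% of 17777 genes: Shmt2 (adjusted p = 8.15e-09), Psat1 (1.8e-05), Mthfd1l (0.00364), Mthfd2 (0.00545), Asns (0.0128) and Shmt1 (0.0334). Shmt2 lost most by day 7, where its log2 effect was 1.79 below that of day 1, while that of Psat1 was 0.92 below at day 7, 2.02 below at day 30 and 2.39 below at day 60. Asns was 1.65 below at day 7 and 2.22 below at day 30. Trib3 did not pass (adjusted p = 0.26), although its effect was 1.42 below that of day 1 at day 7, and neither did Psph (0.173), Atf4 (0.228) or Phgdh (0.593). The injury-only and uninjured libraries of days 14 and 60 come from other library years than those of days 1, 7 and 30, so day and year cannot be told apart there. Without day 14 the same 6 genes were called, beside 12.2% of 17390 genes. The Shmt1 call was lost with DESeq2 size factors (adjusted p = 0.0501) and without a filter on low counts (adjusted p = 0.0533), which left 5. The shares of all genes called were then 14.1% and 5.94%.

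Clodronate was compared with vehicle liposomes to ask what the drug adds in injured animals. At day 1 it was associated with more Psat1 and with no other call among the 10 genes, 1 of 10 beside 0.152% of all genes called higher. Psat1 was at 163, 162 and 219 CPM in the clodronate libraries of the earlier year against 99 and 156 CPM with vehicle. In the later year it was at 268, 238 and 178 CPM against 129 and 105 CPM. In both years every clodronate library lay above every vehicle library, though by little in the earlier year, and Psat1 was the only one of the 10 genes without overlap (0.427% of all genes). The log2 fold change was 0.72 (SE 0.15) and the adjusted p of 0.0498 lay at the threshold. The within-year log2 fold changes were 0.52 in the earlier (adjusted p = 0.869) and 0.91 in the later year (adjusted p = 0.999), and the call was lost with DESeq2 size factors (0.0575) and when only the compared groups were fitted (0.327). It was also lost without clodronate library 3 or 4 or vehicle library 1 of the earlier year, or without clodronate library 1 or vehicle library 1 or 4 of the later year (adjusted p 0.0644 to 0.321).

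Asns at day 1 lay in the same direction, at 31, 19, 33, 21.8, 38 and 22.1 CPM in the clodronate libraries and 14.9, 23.7, 14.9 and 17.7 CPM with vehicle (log2 fold change 0.62, SE 0.24, adjusted p = 0.438). The other members were not called. Shmt2 was at -0.09 (95% interval -0.37 to 0.20), Phgdh at 0.10 (-0.14 to 0.34) and Psph at -0.02 (-0.38 to 0.33). Over the processing alternatives Mthfd1l ran from -0.008 to 0.61, Mthfd2 from 0.0002 to 0.42 and Shmt1 from 0.001 to 0.39. Trib3 ran from -0.28 to 0.515 and Atf4 from -0.38 to 0.02. The level of Shmt1 also differed with the library year, at 16.7 to 21.6 CPM in the earlier and 29.7 to 35.3 CPM in the later clodronate libraries. Trib3, at 9.98 to 16.2 CPM and 1.92 to 15.4 CPM, overlapped between the years. Cell cycle genes summed to 278 to 345 CPM with clodronate against 175 and 307 CPM with vehicle in the earlier year, and to 330 to 1201 CPM against 705 and 529 CPM in the later year. Their part in the Psat1 difference was not tested. Of the 74 pathway genes edgeR called 0, 9 had an unadjusted p under 0.05 and DESeq2 called 0.

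At the later days clodronate and vehicle were not told apart for any of the 10 genes. By edgeR 0 were called at days 7, 14, 30 and 60, where 0.574%, 0.0%, 0.0% and 0.0% of all genes were called in either direction, and DESeq2 called 0 at each. Unadjusted p-values under 0.05 were found for 2 of the 10 at day 7 (Psat1 and Shmt2), 0 at day 14, 0 at day 30 and 1 at day 60 (Mthfd1l). The share of all genes under that unadjusted cut is not given, so these counts cannot be set against a background. Without clodronate library 1 and vehicle library 1 of day 14, left out after the data were seen, 2.16% of 14274 genes were called at day 14 and still 0 of the 10. Atf4 was at 245, 209, 217, 201 and 177 CPM with clodronate and at 164, 320.1, 281, 299 and 326 CPM with vehicle, library 1 first, and the groups overlapped through vehicle library 1. Without both libraries Atf4 had a log2 fold change of -0.63 in place of -0.42 (SE 0.21, adjusted p = 0.154), the 1 member with an unadjusted p under 0.05. At day 7 endothelial and mural markers summed to 560 to 1024 CPM with clodronate and 142 to 447 CPM with vehicle, without overlap, and their part in the day 7 values was not tested. Psat1 at day 7 was at 87.4, 74.4, 77.9, 61.6 and 74.5 CPM with clodronate and at 91.8, 72.9, 125 and 106 CPM with vehicle, a log2 fold change of -0.41 (SE 0.15, adjusted p = 0.233). The direction was thus opposite to that of day 1, with overlapping groups. Shmt2 was at 61.5, 61.9, 51.1, 47.8 and 48.6 CPM against 47.9, 45, 28.4 and 41.8 CPM (0.35, adjusted p = 0.276), where the value of 28.4 CPM is that of the shallow vehicle library 4. Mthfd1l at day 60 was at 8.33, 8.57, 9.69 and 6.35 CPM with clodronate against 4.43, 2.41, 3.73 and 1.14 CPM (1.52, SE 0.67, adjusted p = 0.734), without overlap (3.07% of all genes) but from few reads. A test of whether the clodronate effect differed between days called 0 of the 10 genes (0.27% of all genes), with 1, Psat1, under 0.05 before adjustment (adjusted p = 0.17). The same test called Psat1 without day 14 (adjusted p = 0.0451, beside 0.46% of all genes). It also called Psat1 without the 2 libraries of day 14 named above (adjusted p = 0.0454, beside 4.08% of all genes).

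Vehicle liposomes were compared with injury alone at the days where both share a library year. The vehicle libraries are also the reference of the clodronate comparison, and the injury-only libraries also enter the comparison with uninjured mice, so these results share libraries. At day 7 Psat1 was the 1 gene of 10 called, higher with vehicle, beside 0.196% of all genes called higher. It was at 91.8, 72.9, 125 and 106 CPM with vehicle and at 53.5 to 58.3 CPM with injury only, as listed above, and all 4 vehicle libraries lay above all 5 injury-only ones (1.72% of all genes). The log2 fold change was 0.82 (SE 0.15, adjusted p = 0.0163). The call was lost without vehicle library 5 (adjusted p = 0.0698) and when only the compared groups were fitted (0.107). The highest value, 125 CPM, came from shallow library 4, in which 22.4% of reads lay in no feature and homeostatic markers summed to 23041 CPM against 34836 to 40865 CPM in the other vehicle libraries. Without it the log2 fold change was 0.67 (adjusted p = 0.0287). The log2 fold change ran from 0.67 to 0.94 as single libraries were left out. Psat1 in the clodronate libraries of day 7, at 61.6 to 87.4 CPM, also lay above all injury-only libraries. That difference was not tested. Monocyte markers summed to 105 to 269 CPM with vehicle and 32.6 to 109 CPM with injury only, and neutrophil markers to 5.79 to 27.8 CPM and 0.747 to 12.2 CPM, and their part was not tested.

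At days 1, 30 and 60 vehicle and injury only gave 0 calls among the 10 genes by edgeR and 0 by DESeq2, with unadjusted p-values under 0.05 for 0, 0 and 1 (Shmt1, day 60). The share of all genes called was 0.875%, 0.0% and 0.00831% in either direction. Atf4 at day 1 was at 192, 235, 184 and 154 CPM with vehicle against 235 to 333 CPM with injury only, a log2 fold change of -0.32 (SE 0.19, adjusted p = 0.466) once library year was in the fit. Its groups did not overlap, beside 3.36% of all genes lower without overlap, though both reach 235 CPM as rounded. These ranges take the vehicle libraries of both library years together, while all injury-only libraries are of the earlier year. At day 60 the vehicle libraries were shallower, with 1109856 to 5271285 counts against 8431455 to 12306417 with injury only. Shmt1 was there at 0, 0, 4.52 and 2.46 CPM with vehicle and at 5.28, 7.34 and 10.9 CPM with injury only. Shmt1 (log2 fold change -1.92, SE 0.90, adjusted p = 0.858) and Shmt2 (-0.36, adjusted p = 0.897) were then lower without overlap, beside 4.09% of all genes. Asns at day 1 had a log2 fold change of -0.51 (SE 0.27, adjusted p = 0.41). Among the pathway genes 2 fell with vehicle at day 1, beside 0.668% of all genes. Jdp2 fell (137 to 37.7 CPM, log2 fold change -1.61, adjusted p = 0.0329) and rose at day 7 (12 to 37.3 CPM, 1.62, adjusted p = 0.000769). With clodronate it fell against vehicle at day 7, to 19 CPM (-0.99, adjusted p = 0.0338), beside 0.119% of all genes called lower and the endothelial marker difference given above. Gdf15, a stress-induced secreted factor, went from 47.5 to 13 CPM with vehicle at day 1 (-1.61, adjusted p = 0.0195).

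**Figure D4:**
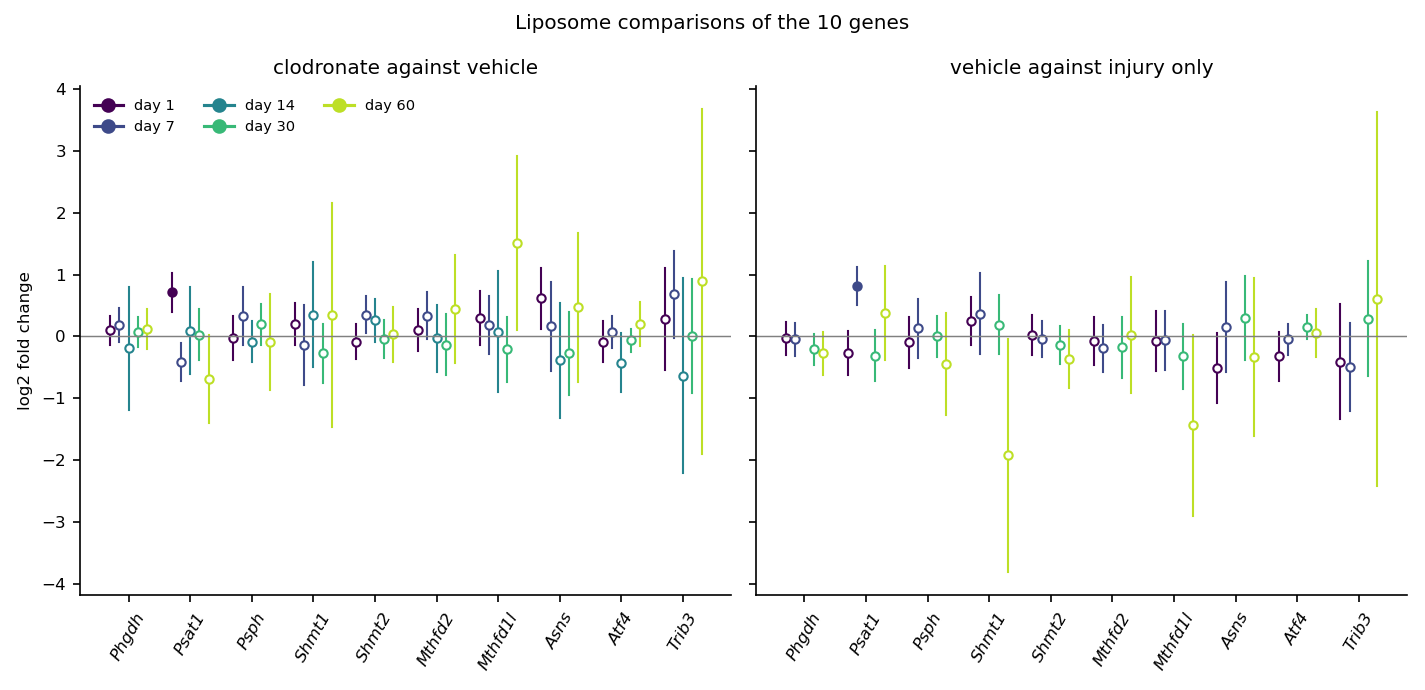
Log2 fold change (vertical axis) with 95% intervals for each gene in the clodronate against vehicle comparison (left) and the vehicle against injury only comparison (right), coloured by day. Filled points have an adjusted p under 0.05. The filled points are Psat1 at day 1 on the left (0.72) and Psat1 at day 7 on the right (0.82).

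Over the 22 group means, the 10 genes did not share one pattern. The mean log2 level of Psat1 had a Pearson correlation of 0.90 with Asns, 0.87 with Mthfd2 and 0.84 with Shmt2, and of 0.70 with Phgdh, 0.58 with Psph and -0.35 with Atf4. Asns had 0.94 with Mthfd2 and -0.26 with Atf4. Among 8339 genes outside the 10, those most like Psat1 were Fndc3b (0.906), Gusb (0.903), Eef2kmt (0.897), Mfsd1 (0.893) and Rpl10a (0.893). Those most like Asns were Coro1c (0.945), Fam129b (0.918), Srxn1 (0.91), Adam8 (0.902) and Msr1 (0.898). The points share libraries, library years and the injured groups of day 1, which are the high end for most of these genes, so the correlations are descriptions.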

How the data were processed

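RNA of sorted microglia was taken up with a PicoPure kit and turned into PCR-amplified Nextera XT libraries, per the labels' protocols. No molecular identifiers are named there, so PCR copies count as separate reads. The submitters' processing notes name STAR and mm10 (GRCm38), without a version. The authors deposited raw counts per gene, 1 file for each of 84 libraries. Counting settings and use of strand are unknown. Lines naming no gene were dropped (reads in no feature: median 5.07%).

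GENCODE M21 gave a symbol to 49412 of 49671 identifiers. The 10 genes, 6 pathway lists and marker lists were chosen with earlier results of these data known. Every comparison used edgeR 4.0.16 (R 4.3.3) inside its day: 1 quasi-likelihood fit of the 4 treatments after TMM scaling and filterByExpr (count 10, total 15), plus a library year term at day 1. "Called", "rose" and "fell" mean a Benjamini-Hochberg adjusted p under 0.05 over all genes tested. Counts of genes with an unadjusted p under 0.05 are given without the share of all genes under that cut. They are descriptions with no background. SE is |log2 fold change| over the root of F, and 95% intervals use t quantiles with that fit's degrees of freedom. An interaction test over all libraries asked whether the injury or clodronate effect varied with day. At day 14, vehicle and injury only differ in library year, so that pair was left out. CPM levels are scaled over all 84 libraries, and fold changes within a day, so ratios of mean levels can differ from fold changes. Correlations use group means of log2 CPM (prior count 2), for genes averaging at least 3.

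Named genes are the 10 members, up to 4 called genes per pathway list by smallest p, and the 2 most abundant of a marker list. Any others are marked as named after their values were seen, or did not pass. Simulated counts were used to test the fits. No library looked like a copy of another (lowest chi-square per degree of freedom 6.40). For 2 uninjured day 30 libraries the title and the library name disagree on the number, and the latter is used. Alternatives were DESeq2 1.42.0 (size factors, and its Wald test), no low-count filter, only the compared groups, a replicate block, single library years, day 14 omitted, 2 libraries of day 14 omitted (chosen after seeing the data) and each library omitted in turn.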

Additional observations from a re-analysis of the deposited data

Results flagged for a closer look

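In 140 pairs of a gene and a group of 4 or more libraries, 1 library lay far from the others in 9, and chance alone flags about 1 in 20. Psat1 in uninjured library 3 of day 7 was at 23.1 CPM, against 17 to 17.9 CPM in the others. Phgdh in injury-only library 3 of day 7 was at 165 CPM, against 124 to 134 CPM. Shmt1 in uninjured library 3 of day 1 was at 7.5 CPM, against 4.24 to 5.15 CPM. Shmt1 in vehicle library 4 of day 7 was at 11.7 CPM, against 4.89 to 5.89 CPM, from 12 counts in the shallow library. Mthfd1l in vehicle library 1 of day 30 was at 4.49 CPM, against 8.77 to 9.62 CPM. Atf4 in vehicle library 1 of day 14 was at 164 CPM, against 281 to 326 CPM. Atf4 in clodronate library 3 of day 30 was at 273 CPM, against 279.8 to 281 CPM, a small gap within a narrow group. Trib3 in clodronate library 1 of day 30 was at 6.32 CPM, against 2.68 to 3.27 CPM. Trib3 in vehicle library 3 of day 60 was at 6.48 CPM, from 33 counts, against 0 to 0.964 CPM.

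For 6 of the 10 genes the injury effect differed between days by edgeR's test of the difference over all libraries. The adjusted p was 8.15e-09 for Shmt2, 1.8e-05 for Psat1, 0.00364 for Mthfd1l, 0.00545 for Mthfd2, 0.0128 for Asns and 0.0334 for Shmt1. All 6 had their largest effect at day 1.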

How the results depend on the processing

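The 9 genes called after injury at day 1 stayed at 8 to 9 as single libraries were left out and at 9 under the other alternatives, and no gene that was called changed direction. Among genes that were not called, values crossed 0: at day 14 after injury Mthfd1l ran from -1.43 to 0.58 and Atf4 from -0.17 to 0.36, and at day 60 Psat1 from -0.47 to 0.46. Of the summary counts, 180 stayed equal or within a factor of 1.5 under an alternative, 15 fell by more and 4 rose by more. Many of the 180 were counts of 0 that stayed at 0, which says little about stability. Of the single-gene results 172 kept their call and 22 lost it. At day 7 the count after injury ran from 1 to 3 as libraries were left out, and at day 14 from 0 to 1. For clodronate against vehicle at day 1 the count of 1 became 0 with DESeq2 size factors, with the compared groups alone and within either library year. It was 0 to 1 as libraries were left out. Without a filter on low counts it was 2 (Psat1 and Asns, adjusted p = 1.22e-06 and 0.0318). The share of all genes called in that setting is not given here, so this count and its smaller adjusted p-values have no background beside them. For vehicle against injury only at day 7 the count of 1 became 0 with the compared groups alone and 0 with the replicate block, and was 0 to 1 as libraries were left out. The clodronate effect by day gave 1 in place of 0 without day 14 (0.46% of all genes). It gave 1 without the 2 libraries of day 14 that stood apart (4.08% of all genes), an alternative chosen after seeing the data. The injury effect by day gave 5 in place of 6 with DESeq2 size factors (14.1% of all genes) and without the filter (5.94%). The cause of these changes was not tested. Library numbers did not pair the libraries: same-numbered deviations correlated at -0.579 to 0.175, and no comparison with 3 or more pairs had every pair above 0.1. With the replicate block the day 1 clodronate difference in Psat1 was 0.87 (adjusted p = 0.00286). Only 2 same-numbered pairs of libraries enter that comparison, so this adjusted p rests on very few libraries. At day 7 after injury 3 genes were called with the block in place of 2. Depth limits Trib3, with under 10 counts in 11 libraries, and Shmt1 and Mthfd1l, with under 10 in 5 each. At day 60 the error of a log2 fold change reached 1.55 for Trib3.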
